A study of Mus musculus with 6 samples.

Results

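Matricellular proteins are secreted into the extracellular matrix, where they act on cells rather than as structural fibers. Through integrins and other receptors they set how cells adhere, spread, migrate and respond to growth factors, and many of them are known for being made in wounds and in tumor stroma. The 10 genes described here encode members of several such families: the Sparc family (*Sparc*, *Sparcl1*), the thrombospondins *Thbs1* and *Thbs2*, the CCN proteins *Ctgf*, *Cyr61* and *Nov* (*Ccn2*, *Ccn1* and *Ccn3* in the array annotation), periostin (*Postn*), tenascin-C (*Tnc*) and osteopontin (*Spp1*). They were chosen by name. A gene was measured through the probe sets, groups of short oligonucleotides on an Affymetrix array, that the platform annotation pairs with that 1 symbol. This gave 19 probe sets for 9 of the 10 genes, among 12518 genes tested in all. *Spp1* was not analysed here.

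The arrays compared 3 mammary tumors of acinar histology from *K14-cre*; *Apc*CKO/+ female mice of a mixed strain background that included C57BL/6, FVB and a further strain with 3 mammary glands of *cre*-negative mice of matched age, each sample on its own array. In the tumor-bearing mice Cre is driven by the keratin 14 promoter in epithelial cells and removes an exon of the conditional *Apc* allele, and per the study all 3 tumors were heterozygous for the recombined allele, with a truncating mutation in the other. The *Apc* genotype and the strain background of the control mice on the arrays, and the ages, are not given in the sources used here. The labels call the samples biological replicates without naming the animals, so that p-values measure the spread between samples, which may be partly technical.

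Values are MAS 5.0 signals, a linear intensity that the authors scaled to a target of 500 on every array. For the tests, signals below 50 were set to 50, log2 values were taken, and the probe set with the highest mean stood for the gene. Calls rest on limma, with p-values adjusted by Benjamini-Hochberg over all 12518 genes and a threshold of 0.05. The median signal per array was 133 to 171 in control glands and 124 to 138 in tumors. The makeup of the samples differed. Of 10 epithelial marker genes 9 were higher in tumors, with summed signals of 84573 to 102243 against 12431 to 29273 in control glands. Of 10 fibroblast markers 9 were lower, with summed signals of 1380 to 5617 against 75982 to 84006. Of 10 endothelial markers 8 were lower (1760 to 4114 against 8375 to 10492). Among these lower markers, *Clec3b* and *Twist2* of fibroblasts and *Vwf* of endothelium passed the filter through the control glands alone. They thus had to differ. Of 9 markers of pericytes and smooth muscle 4 were lower (6140 to 12500 against 10904 to 21885). Of 10 macrophage markers 2 were lower and 8 were not called, with summed signals of 8351 to 13937 against 17302 to 29510. Among all genes tested 16.8% were lower and 16.3% higher, so the macrophage count was near the share of all genes. The fibroblast markers *Pdgfra* and *Dpt* and the endothelial marker *Pecam1* had mean tumor signals of 216, 446 and 172. No detection calls were used, so these signals do not show whether the transcripts were present. Fewer cells of a type and less RNA per cell cannot be told apart in such samples, and the part of these differences in the results below was not tested.

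Most matricellular protein genes were expressed at a lower level in acinar tumors than in control glands, and 1 at a higher level. Of the 9 genes measured, 6 were lower (*Thbs2*, *Tnc*, *Sparc*, *Postn*, *Sparcl1* and *Cyr61*), 1 was higher (*Thbs1*) and 2 did not pass the test (*Nov* and *Ctgf*). Over all genes 16.8% were called lower, 16.3% higher and 33.1% either way, against 7 of these 9. The median log2 fold change was −1.57 for the 9 genes and 0.071 for all genes tested. All 9 passed the filter on low signals, which asks for 100 or more on 3 or more arrays, and so did 18 of the 19 probe sets. *Tnc* and *Nov* reached 100 on 4 arrays, the 3 control glands and tumor replicate 1. Every tumor lay below every control gland for the 6 lower genes and above every control gland for *Thbs1*, where 23.1% and 27.1% of all genes do so, and 50.2% in either direction. The number of lower genes was 2 with no filter on low signals and 2 by the methods' t-test, and 3 without control replicate 2, without control replicate 3 or without tumor replicate 3.

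**Figure D1:**
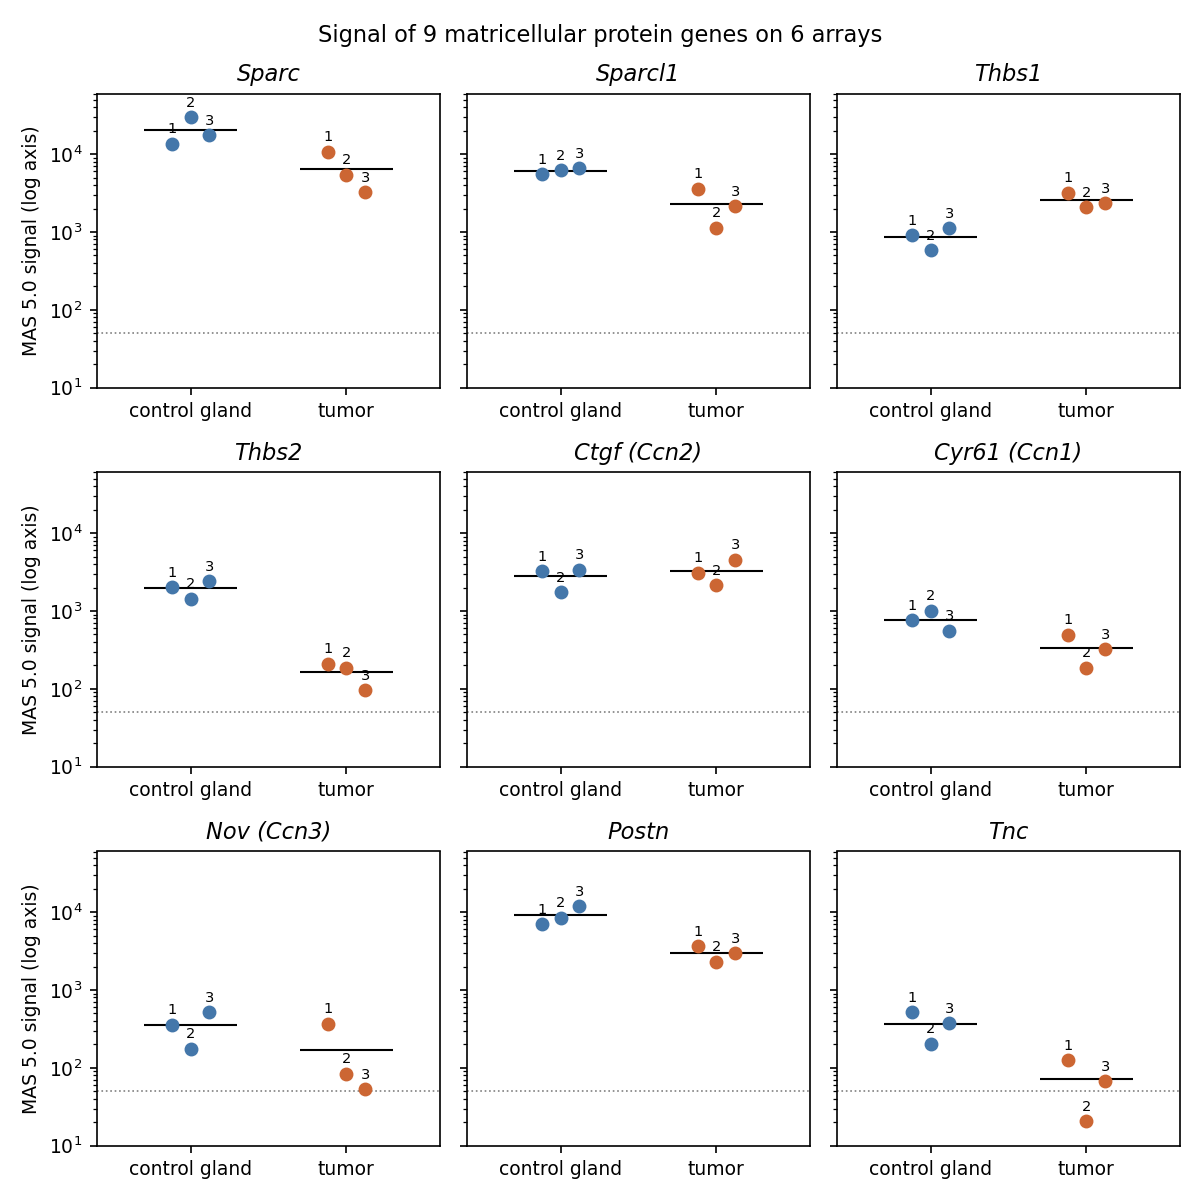
MAS 5.0 signal, on a log axis, of 9 matricellular protein genes in 3 control glands and 3 acinar tumors, with 1 panel per gene. Each point is 1 array with its replicate number, bars are group means and the dotted line marks the floor of 50. Only *Thbs1* has all 3 tumors above all 3 control glands, and *Ctgf* and *Nov* are the genes whose groups overlap.

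Both thrombospondins were called, in opposite directions. Thrombospondin-1 and thrombospondin-2 are trimeric glycoproteins that bind CD36 and CD47, inhibit the growth of blood vessels and differ in that thrombospondin-1 can activate latent TGF-β. In control glands the signals of *Thbs1* were 901, 587 and 1117, and the tumors had 3177, 2077 and 2355. The lowest tumor thus lay above the highest control gland, with means of 868 ± 267 (SD, n = 3) and 2536 ± 572 (SD, n = 3). The log2 fold change was 1.57 with an SE of 0.30 (adjusted p = 0.0078), a 2.97-fold difference.

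For *Thbs2* the control glands gave 2011, 1439 and 2418, and the tumors 210.5, 187 and 95.8. The groups were far apart, with means of 1956 ± 492 and 164.5 ± 60.6, and no member fell further. On the log2 scale the difference was −3.62 with an SE of 0.36 (adjusted p = 0.000601), a 12.3-fold difference.

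The other probe sets of both genes moved the same way. The log2 fold changes of those of *Thbs2* were −4.87 (adjusted p over all probe sets of 0.000218) and −3.05 (0.00183), so that all 3 probe sets were called. The value of −4.87 depends on the floor, since tumor replicate 3 lay at 31.4 on that probe set. For *Thbs1* the dimmer probe set gave 588, 402 and 607 in control glands against 1369, 832 and 759, and its log2 fold change of 0.86 did not pass the test over all probe sets (adjusted p = 0.0702). The rise of *Thbs1* and the fall of *Thbs2* kept their direction and their call in all 19 alternatives run, with adjusted p-values of 0.00189 to 0.0346 and of 0.000261 to 0.0102 in the 18 of them that used limma.

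The log2 ratio of *Thbs1* to *Thbs2* on the same array was −1.16, −1.29 and −1.11 for the control glands, whereas the tumors had 3.92, 3.47 and 4.62. Only its change between groups can be read, because the level of 1 probe set cannot be set against that of another. The change was 5.19 on the log2 scale, with no overlap between groups (2-sided exact permutation p = 0.1, which is the lower limit with 3 samples a group, or 0.25 adjusted over the 5 pairs compared).

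The promoter of *Thbs2* is shown here because its gene had the largest change of the members. It is the 250 bases before the RefSeq transcription start on GRCm38.p6, chr17:14694263-14694512, minus strand, 5′ to 3′.
Thbs2: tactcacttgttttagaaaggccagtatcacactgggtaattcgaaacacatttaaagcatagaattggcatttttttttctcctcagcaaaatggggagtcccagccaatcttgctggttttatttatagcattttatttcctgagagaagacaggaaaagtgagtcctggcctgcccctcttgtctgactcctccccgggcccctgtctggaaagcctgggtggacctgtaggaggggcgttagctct
Both strands were searched for the TEAD motif CATTCC, the TCF/LEF motif CTTTGA, the AP-1 motif TGANTCA and the CArG box of SRF, and none of these letters was found in this window. Of 32851 promoter windows of this length, 12.6%, 13.8%, 6.75% and 1.47% hold them.

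Of the 3 CCN genes 1 was called lower and 2 were not called, which is near the 33.1% of all genes called in either direction. CCN proteins share modules that bind growth factors, integrins and heparan sulfate. *Ctgf* and *Cyr61* are classic targets of the coactivators YAP and TAZ, which bind DNA through TEAD factors, and of SRF, whereas NOV (CCN3) often opposes the actions of CTGF. The signals of *Cyr61* in control glands were 758, 1012 and 559, whereas the tumors had 495, 187 and 320. Every tumor was below every control gland, though tumor replicate 1 lay close to control replicate 3. The log2 fold change was −1.29 with an SE of 0.40 (adjusted p = 0.0418), a 2.44-fold difference.

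This value came from the brightest of 4 probe sets, which ends in _x_at and may cross-hybridize. The other 3 had log2 fold changes of −1.35, −1.99 and −1.83, with adjusted p-values over all probe sets of 0.028, 0.00296 and 0.00732, and on each of the 3 every tumor was below every control gland. Without the probe sets ending in _s_at, _x_at or _a_at, the gene's log2 fold change was −1.83. The call from the brightest probe set was lost without control replicate 1, 2 or 3 (adjusted p = 0.0921, 0.117 and 0.0542) and without tumor replicate 2 or 3 (0.104 and 0.0912). It was also lost with equal array medians (0.0782), with the replicate number as a block (0.0749), with no filter on low signals (0.126) and by the methods' t-test. In limma the adjusted p of this probe set ran from 0.0202 to 0.126. The gene's lowest value, 0.00745, came from another of its probe sets.

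For *Ctgf* the control glands gave 3252, 1746 and 3405, and the tumors 3109, 2149 and 4554. The groups overlapped, with means of 2801 ± 917 and 3271 ± 1211. The estimated log2 fold change was 0.22 (95% interval −0.65 to 1.09, adjusted p = 0.685), and it was −0.092 without control replicate 2 and −0.054 without tumor replicate 3.

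*Nov* was uneven among the tumors, at 369 in tumor replicate 1 but 84.4 and 53.0 in the other two, against 357, 175 and 520 in control glands. Tumor replicate 1 thus lay within the range of the control glands, and the log2 fold change of −1.43 with an SE of 0.73 (adjusted p = 0.17) did not pass. Its second probe set gave the same order of the tumors, 463, 89.1 and 41.2, and a log2 fold change of −1.08. Without tumor replicate 1 the log2 fold change was −2.25 (adjusted p = 0.0185). In tumor replicate 1 the summed signals of several marker lists were also the highest of the tumors. These were pericyte and smooth muscle markers (12500, against 6336 and 6140), skeletal muscle markers (40043, against 1901 and 555) and endothelial markers (4114, against 2452 and 1760). The others were macrophage markers (13937, against 12808 and 8351), basal and myoepithelial markers (5413, against 3183 and 3872) and nerve and Schwann cell markers (5893, against 3244 and 5825). The sums of fibroblast, adipocyte, lymphocyte and epithelial markers were not highest in that tumor. The part of these differences in the result for *Nov* was not tested.

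The log2 ratio of *Ctgf* to *Cyr61* was 2.10, 0.79 and 2.61 for the control glands, whereas the tumors had 2.65, 3.52 and 3.83, so that its group mean rose from 1.83 to 3.34 (exact permutation test, 2-sided, p = 0.1, adjusted 0.25). The groups did not overlap, but control replicate 3 and tumor replicate 1 differed by little. The ratio of *Ctgf* to *Nov* changed by 1.65 (exact p = 0.3, adjusted 0.5) and that of *Cyr61* to *Nov* by 0.15 (exact p = 0.7, adjusted 0.875), both with overlapping groups.

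**Figure D2:**
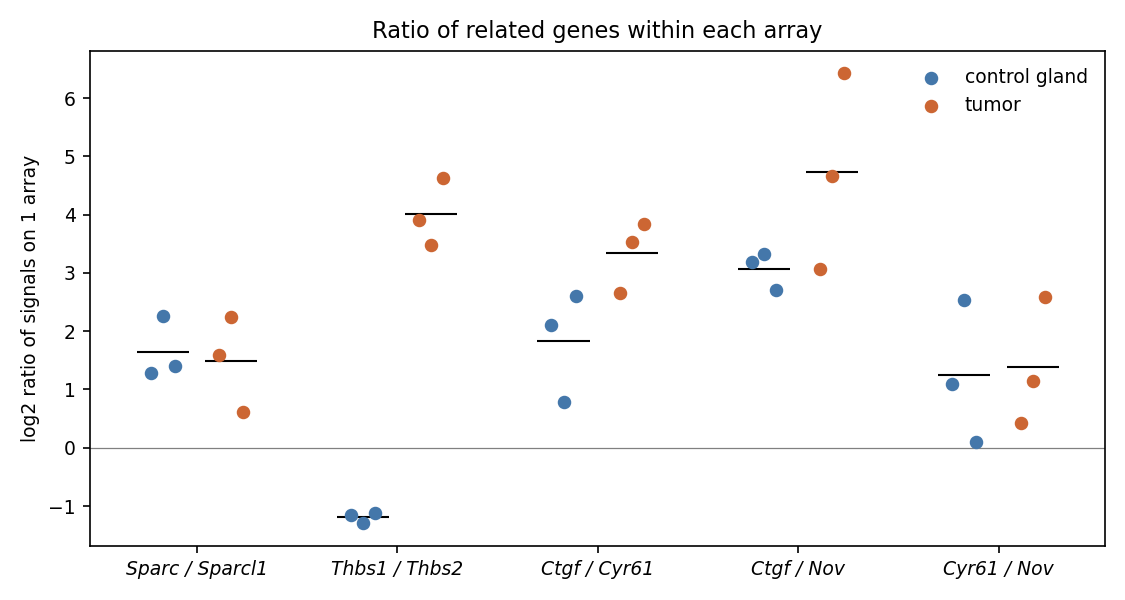
Log2 ratio of the signals of related genes on the same array, for 5 pairs, with 1 point per array and a bar at the mean of each group. For *Thbs1* over *Thbs2* the 3 tumors lie at 3.47 to 4.62 and the 3 control glands at −1.29 to −1.11, while for *Sparc* over *Sparcl1* the groups overlap.

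The promoter of *Cyr61* is shown because the gene is a target of TEAD factors and the only member with an entry to hold a searched motif. It is the 250 bases before the RefSeq start on GRCm38.p6, chr3:145649986-145650235, minus strand, 5′ to 3′, with the TEAD motif CATTCC in capitals.
Cyr61: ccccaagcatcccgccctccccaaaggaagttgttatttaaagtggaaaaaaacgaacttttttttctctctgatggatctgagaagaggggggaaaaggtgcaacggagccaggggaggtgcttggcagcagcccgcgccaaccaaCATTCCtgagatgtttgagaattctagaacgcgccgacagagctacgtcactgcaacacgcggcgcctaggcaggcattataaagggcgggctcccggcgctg
The motif lies 103 to 98 bases before the start. The TCF/LEF, AP-1 and CArG motifs were not found in this window. RefSeq entries matched 5 of the 9 genes measured, with 7 starts, and the windows of *Sparc*, *Postn*, *Thbs2* and *Tnc* held none of the 4 motifs. A match is a description of the sequence and not evidence of binding.

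Both genes of the Sparc family were lower in tumors. Sparc binds collagen and is needed for the assembly of collagen fibrils, and Sparcl1, or hevin, is a related protein that is abundant in vessel walls. The signals of *Sparc* in control glands were 13566, 29607 and 17492, whereas the tumors had 10705, 5416 and 3248. Tumor replicate 1 lay nearest to the lowest control gland, and control replicate 2 stood well above the others. The log2 fold change was −1.74 with an SE of 0.48 (adjusted p = 0.0286), a 3.34-fold difference.

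On its second probe set the change was −1.36 on the log2 scale (adjusted p over all probe sets of 0.0553), and the third, whose signals were 52.6 to 173 on all arrays, −0.81 (0.195). The gene's call was lost without control replicate 2 or 3 (adjusted p = 0.0823 and 0.0668), without tumor replicate 2 or 3 (0.0843 and 0.074), with the replicate number as a block (0.0527), with no filter (0.107) and by the methods' t-test, within a range of 0.0113 to 0.107 in limma. In control replicate 2 the summed signal of 8 skeletal muscle markers was 184824, against 7900 and 68406 in the other control glands, and its part in the level of *Sparc* was not tested. Without that array the log2 fold change was −1.43.

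For *Sparcl1* the control glands gave 5560, 6168 and 6611, and the tumors 3572, 1140 and 2123. The control glands were tightly grouped, at 6113 ± 528, and the tumors spread more widely, at 2278 ± 1224. This is a log2 fold change of −1.57 with an SE of 0.40 (adjusted p = 0.0219), a 2.97-fold difference. The call was lost without control replicate 2 or 3 (adjusted p = 0.0574 and 0.068), without tumor replicate 3 (0.0564) and with no filter (0.0833), within a range of 0.00724 to 0.0833 in limma. The log2 ratio of *Sparc* to *Sparcl1* changed by −0.17 between groups, with overlapping values (exact permutation test, 2-sided, p = 0.9, adjusted 0.9).

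*Postn* and *Tnc*, genes of matrix proteins that are known for rising in wounds and in the stroma around tumors, were both lower in the acinar tumors. Periostin binds integrins and helps to cross-link collagen, and tenascin-C is a large hexameric protein that weakens cell adhesion to fibronectin. The signals of *Postn* in control glands were 6934, 8439 and 11842, whereas the tumors had 3662, 2316 and 2939. The tumors were close together and all below the control glands, with means of 2973 ± 674 and 9072 ± 2514. The log2 fold change was −1.60 with an SE of 0.28 (adjusted p = 0.00576), a 3.03-fold difference, and it passed in all 18 alternatives that used limma (adjusted p from 0.00325 to 0.0263).

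For *Tnc* the control glands gave 514, 203 and 377, and the tumors 125.5, 20.5 and 66.8. All tumors lay below all control glands, and tumor replicate 2 lay below the floor of 50. On the log2 scale the difference was −2.18 with an SE of 0.45 (adjusted p = 0.00976), a 4.54-fold difference, which was lost in limma only with no filter (0.0537, from 0.00532 at the lowest). A second, dim probe set failed the filter. Control glands gave 125, 8.3 and 49.9 there and tumors 1.5, 4.0 and 2.1, and no fold is given for it.

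**Figure D3:**
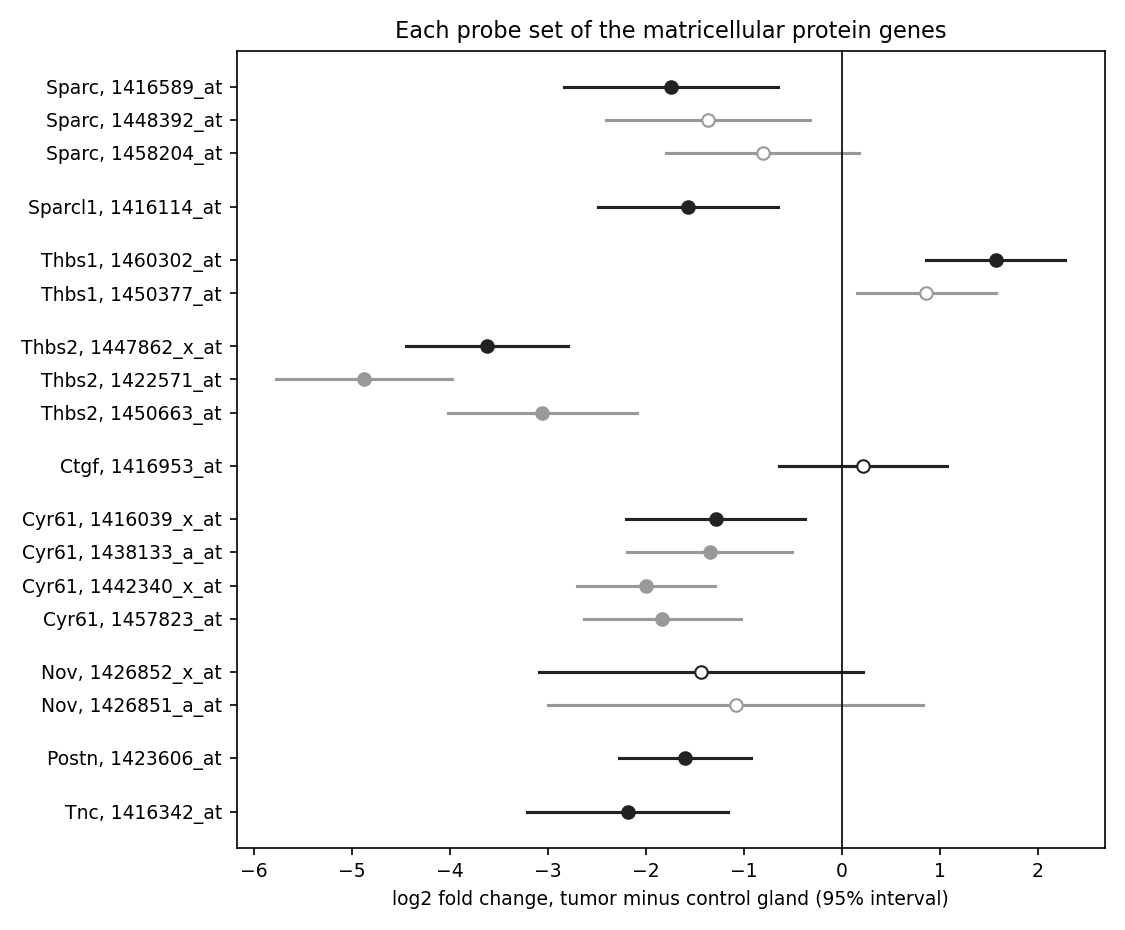
Log2 fold change, tumor minus control gland, with its 95% interval from a limma fit of all probe sets, for the 18 probe sets of 9 genes that passed the filter. Black marks the probe set that stands for the gene and grey the others, and filled points have an adjusted p under 0.05 over all probe sets. The 3 probe sets of *Thbs2* lie between −4.87 and −3.05 and both of *Thbs1* lie above 0.

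Across the 6 arrays, *Thbs2* had its highest Pearson correlations of log2 signals among all genes tested with *Abca9* (r = 0.9998), *Azin2* (0.998) and *Tmem159* (0.998), whose log2 fold changes were −2.53, −1.30 and −2.38. For *Thbs1* they were with *Nfx1* (0.998), *Camk4* (0.998) and *Large2* (0.998), at 1.13, 1.13 and 2.52. All of these points share the difference between the groups, so the correlations are descriptions only. Of the members, *Sparcl1* was closest to *Cyr61* (r = 0.938) and to *Postn* (0.935), and within the groups those correlations were 0.813 and 0.749 over the same arrays.

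Of 19 relatives of the members in the same protein families, 10 were tested, with 5 called lower, 1 called higher and 4 not called, where 16.8% of all genes were lower and 16.3% higher. The median log2 fold change was −1.28. For 3 of the 6 called genes a whole group lay below 50. *Smoc1*, a relative of Sparc in basement membranes, fell by 4.28 on the log2 scale, from 2512 ± 886 to 124 ± 11.7 (adjusted p = 0.000185). *Tgfbi*, which encodes a relative of periostin, fell by 2.67 (adjusted p = 0.000597). *Tnxb*, the gene of the tenascin of loose connective tissue, and *Thbs3*, a pentameric thrombospondin, lay below 50 in all 3 tumors, so that they were at least 13.2-fold and at least 3.11-fold lower. Both passed the filter through the control glands alone and thus had to differ, and no p is given for them.

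The 1 higher gene, named after its values were seen, was *Wisp1* (*Ccn4*), a CCN gene known as a target of Wnt signaling. Its signals of 13.2, 37.3 and 11.3 in control glands all lay below 50, against 117, 253 and 118 in tumors, at least a 3.03-fold difference. The gene passed the filter through the tumors alone, and no p is given for it. The fifth lower gene was *Fstl1*, also named after its values were seen, at −1.39 (adjusted p = 0.0189). The values of *Spock3* and *Spock2* were −0.40 (adjusted p = 0.48) and −0.54 (0.22).

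Of 22 receptor genes, 19 were tested, with 7 called lower, 1 called higher and 11 not called, with a median of −0.31. Over all genes 16.8% were lower and 16.3% higher. The thrombospondin receptor genes *Cd36* and *Cd47* were among the lower ones. *Cd36*, a scavenger receptor that adipocytes also express, dropped to 924 ± 619 from 26692 ± 1952, which is −5.24 on the log2 scale (adjusted p = 0.00157). *Cd47*, named after its values were seen, had −1.65 (adjusted p = 0.00344) and *Lrp1*, the endocytic receptor of several matricellular proteins, −3.08 (adjusted p = 0.00152). In the same tumors 8 of 8 adipocyte markers were lower, with summed signals of 1570 to 11194 against 125398 to 164444.

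*Cacna2d1*, a calcium channel subunit that binds thrombospondins, had −2.90 (adjusted p = 0.0237) and the leukocyte integrin gene *Itgb2* −2.63 (adjusted p = 0.00229). The value of *Cacna2d1* depends on the floor, since tumor replicate 3 lay at 29.1. The higher gene, also named after its values were seen, was *Cd44*, a receptor of hyaluronan and osteopontin, at 1.33 (adjusted p = 0.0058). The integrin genes *Itga3* and *Itga9* had 0.11 (adjusted p = 0.813) and −0.25 (adjusted p = 0.638).

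Genes that act with matricellular proteins in the matrix were mostly lower. Of 11 matrix partners, 9 fell and 2 were not called, with a median of −2.63, where 16.8% of all genes were lower and 16.3% higher. The collagen genes *Col5a1*, *Col1a1* and *Col1a2* had log2 fold changes of −3.56, −3.44 and −3.36, and *Lox*, which cross-links collagen, −3.38 (adjusted p = 0.00544, 0.0331, 0.0174 and 0.0183). The value of *Col1a1* depends on the floor, since tumor replicate 3 lay at 17.6, while tumor replicate 1 lay at 786. The basement membrane collagen *Col4a1* and the collagen chaperone *Serpinh1* did not pass, at −0.23 and −1.20 (adjusted p = 0.697 and 0.134). Of 9 genes tested for proteases that cut such proteins and their inhibitors, 7 fell and 2 were not called, with a median of −2.45. *Mmp9*, named after its values were seen, is among the 7. It passed the filter through the control glands alone and thus had to differ. The largest decrease was −4.74 for *Adamts5* (adjusted p = 0.00402), a protease whose signal lay below 50 in 1 tumor. The matrix metalloprotease genes *Mmp2* and *Mmp3* had −2.57 and −2.51 and the inhibitor gene *Timp3* −2.61 (adjusted p = 0.00313, 0.00162 and 0.0015). *Timp1* and *Mmp14* did not pass, at 0.086 and −0.76 (adjusted p = 0.853 and 0.119). The median log2 fold change was −3.39 for fibroblast markers, −6.33 for adipocyte markers, −1.71 for endothelial markers and 2.35 for epithelial markers. The part of such differences in the results of these lists was not tested.

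Of 13 genes of the Hippo pathway and its TEAD factors, which regulate CCN genes, 2 rose, 3 fell and 8 were not called, with a median of −0.24. These counts are near the shares over all genes, 16.3% higher and 16.8% lower. *Tead2* rose by 2.47 (adjusted p = 0.00474) while *Tead1* fell by 1.86 (adjusted p = 0.00428). The kinase gene *Lats2* fell by 1.73 (adjusted p = 0.00408) and *Wwtr1*, which encodes TAZ, by 1.67 (adjusted p = 0.0162). The other higher gene, named after its values were seen, was *Vgll4*, a TEAD cofactor, at 1.03 (adjusted p = 0.0241). *Stk4* and *Mob1a* had −0.24 (adjusted p = 0.48) and −0.28 (adjusted p = 0.399).

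Of 13 other targets of YAP and TEAD tested, 7 fell, 2 rose and 4 were not called, with a median of −1.07. The shares over all genes were 16.8% lower and 16.3% higher. The largest changes were −4.69 for *Dlc1*, −2.45 for *Amotl2*, −2.43 for *Gadd45b* and 2.21 for the kinase gene *Nuak2* (adjusted p = 0.000541, 0.0013, 0.000652 and 0.00209), and the second higher gene, named after its values were seen, was *Fjx1* at 0.91 (adjusted p = 0.0443). *Nt5e* had −0.31 (adjusted p = 0.536) and *Ajuba* had −0.43 (adjusted p = 0.295).

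Among SRF and its targets of cell tension 13 were tested, of which 2 rose, 1 fell and 10 were not called, with a median of 0.43, and this is no more than the 33.1% called over all genes. The contractile genes *Cnn1* and *Acta2* rose by 1.26 (adjusted p = 0.0269) and 0.78 (adjusted p = 0.0206), and *Vcl*, the gene of vinculin, fell by 0.85 (adjusted p = 0.0396). *Flna* and *Mkl1* had 0.054 (adjusted p = 0.912) and −0.27 (adjusted p = 0.619).

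Among 12 genes tested in the TGF-β pathway 4 fell and 8 were not called, with a median of −0.32, where 33.1% of all genes were called in either direction, so that the count is near the background. *Ltbp1* and *Ltbp2*, which hold latent TGF-β in the matrix, had −2.09 and −2.01 (adjusted p = 0.0111 and 0.0055), and the receptor genes *Tgfbr2* and *Tgfbr3* −1.28 and −1.08 (adjusted p = 0.0127 and 0.0123). *Smad2* and *Smad3*, which carry the signal, had −0.037 (adjusted p = 0.929) and 0.088 (adjusted p = 0.833).

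**Figure D4:**
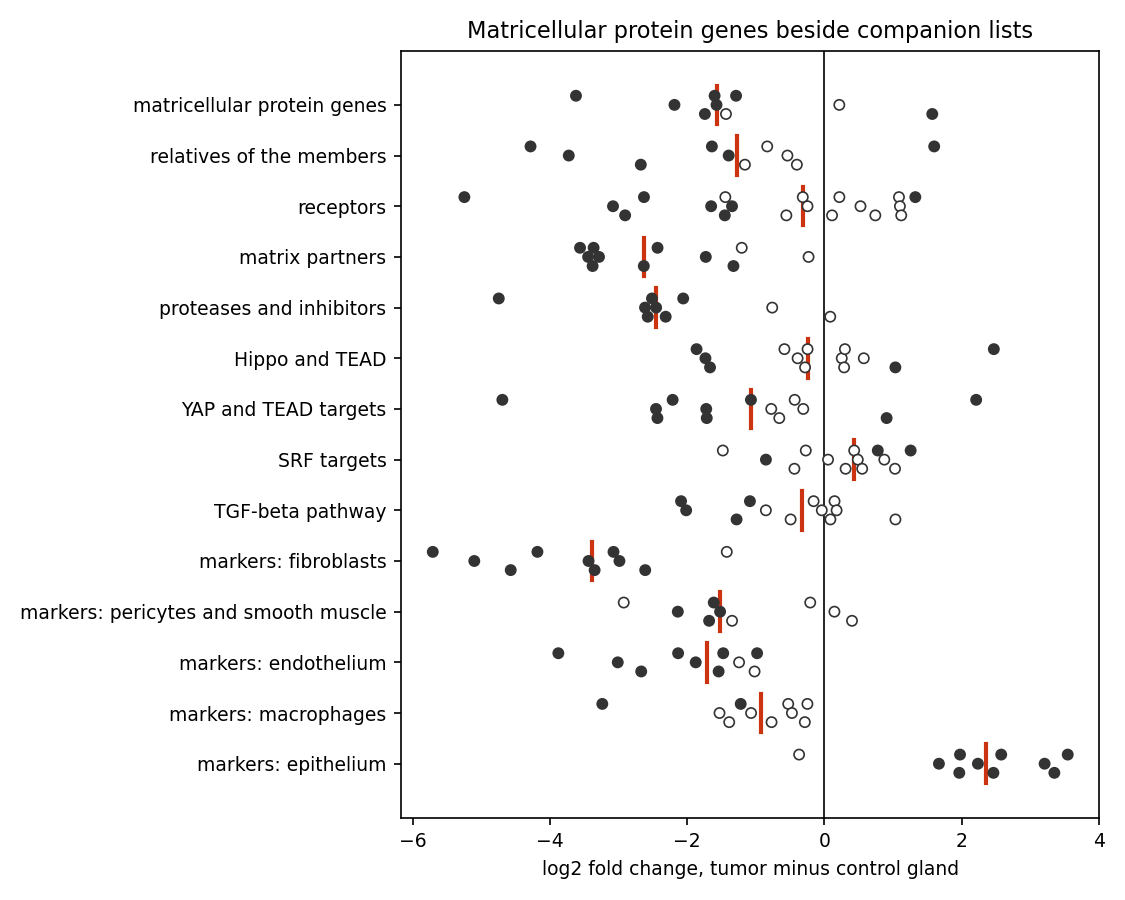
Log2 fold change, tumor minus control gland, of the matricellular protein genes and 13 other lists, with 1 point per gene tested. Filled points passed the test, open points did not, and the red line marks each list's median, which is −1.57 for the matricellular protein genes, −2.63 for matrix partners and −3.39 for fibroblast markers.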

How the data were processed

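RNA of 3 acinar mammary tumors and 3 control mammary glands was hybridized to Affymetrix M430 2.0 arrays. The deposited values are intensities on a linear scale that the authors made with the MAS 5.0 algorithm and scaled to a target of 500. No use was made of detection calls. The arrays hold 45101 probe sets. Besides 64 controls, which were removed, 34945 had 1 gene symbol in the platform annotation, 932 had several and 9160 were unnamed here. The older names *Ctgf*, *Cyr61* and *Nov* were matched through synonyms. From the deposited intensities, values below 50 were set to 50, log2 values were taken, and probe sets with at least 100 on at least 3 of 6 arrays were kept. Where several probe sets measured 1 of the 12518 genes, the brightest on average represented it. The 2-sided group comparison used limma 3.58.1 (lmFit, then eBayes) under R 4.3.3. Ratios of related genes were compared with exact permutation tests. The limma fit and the adjustment of its p-values were tested on simulated data, and the other steps were not.

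The members, the 22 gene lists (214 symbols, 206 of them found in the annotation) and the rule for named genes were chosen with earlier results of these data known. The rule names all members, in each companion list up to 4 called genes with the largest change and the 2 furthest from passing, and for 2 members the 3 genes most like them. Of the marker lists, the text names a few defining markers and genes that passed the filter through the control glands alone. Skeletal muscle markers (8 tested, none called, median −3.49), markers of basal and myoepithelial cells (1 higher and 1 lower of 6), of nerve and Schwann cells (1 higher and 2 lower of 4) and of lymphocytes (3 lower of 3) were also measured. Of all genes 16.8% were lower and 16.3% higher. The lymphocyte markers *Cd79b* and *Ms4a1* passed the filter through the control glands alone and thus had to differ. The alternatives were other floors, log2 of the signal plus 50, other scalings and filters, a trend in the variance, a block for the replicate number, omission of single arrays, other choices of probe set and the methods' t-test. The number of arrays limits the precision. No correlation of same-numbered samples was above 0.038, so the numbers were not taken as pairs.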

Additional observations from a re-analysis of the deposited data

How the results depend on the processing

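Among 9 genes measured, 6 were lower and 1 was higher in the reported analysis. *Thbs1* was the 1 higher gene in all 19 alternatives. The number of lower genes was 2 with no filter on low signals and 2 under the methods' t-test, which needs a statistic of at least 4.5 and a 2-fold ratio of means, and it ran from 3 to 7 when 1 array was left out. It was 4 with the replicate number as a block, where *Sparc* and *Cyr61* did not pass (adjusted p = 0.0527 and 0.0749), 5 with equal array medians and 6 in the other alternatives. The cause of these losses was not tested. The methods' t-test called *Thbs1*, *Thbs2* and *Sparcl1*, and after Benjamini-Hochberg adjustment it called 0 of the 9 genes and 140 of all genes, where limma called 7 of the 9. Equal array medians moved the median of all genes from 0.071 to 0.31, and that of the 9 genes to −1.33. They also moved the calls over all genes from 2045 higher and 2098 lower to 3026 and 1665. The log2 fold change of *Ctgf* ran from −0.092 to 0.49 when 1 array was left out, below 0 without control replicate 2 (−0.092) and without tumor replicate 3 (−0.054), and was not called in any of the 19 alternatives. *Nov* was not tested when probe sets ending in _s_at, _x_at or _a_at were left out, because both of its probe sets have such an ending. In tumors the signals of *Tnc* and *Nov* reached 100 in replicate 1 alone, so their values there lie near the floor.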

Other observations

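1 further probe set is annotated to both *Thbs1* and *Pald1* and was therefore given to neither gene. The control glands gave signals of 4219, 2470 and 4970 there, and the tumors 9606, 10187 and 9903.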
